A study of Homo sapiens with 8 samples.

Results

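The genes described here are 10 feedback and immediate output genes of ERK signalling: the phosphatase genes DUSP4, DUSP5 and DUSP6, the Sprouty genes SPRY1, SPRY2 and SPRY4, and the transcription factor genes ETV4, ETV5, EGR1 and FOSL1. They were taken by symbol from a table of 25435 genes. All 10 were found, and all 10 were among the 14898 genes that passed the filter on low counts. Messenger RNA had been sequenced in 8 libraries from SET-2, a cell line derived from an essential thrombocythemia that had transformed to megakaryoblastic leukemia. An activating JAK2 mutation of the line is shared by knockout and control cells. Cells were transduced with a GFP-marked virus carrying a guide RNA against ZRSR2, a splicing factor of minor (U12-type) introns, or a non-targeting guide. There were 4 ZRSR2-guide libraries, labelled ZRSR2 KO, and 4 non-targeting libraries, labelled ZRSR2 wildtype. Each genotype had a guide 1 and a guide 2 in each of 2 experiments: experiment 1 holds replicates 1 (guide 1) and 2 (guide 2), and experiment 2 holds replicates 3 (guide 1) and 4 (guide 2). The protocol gives RNA collection on day 20 after transduction for biological replicate 1 and on day 25 for biological replicate 2. If the experiment number is that replicate number, experiment and day are the same split, and the effects of day, batch and experiment then cannot be told apart. All libraries come from 1 line, and no label says that the libraries of an experiment came from separate cultures, so the p-values measure the spread between these libraries, which may be technical.

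ERK is the last kinase of the RAS, RAF and MEK cascade, which JAK2 engages downstream of cytokine receptors. Active ERK phosphorylates transcription factors of the ETS family and, through ELK proteins and SRF, turns on immediate early genes such as EGR1. Several of the induced genes limit the pathway in turn. DUSP proteins remove the activating phosphates from ERK, and Sprouty proteins act further up, around RAS and RAF. In the megakaryocytic lineage, strong or lasting ERK activity is linked to maturation. The values used here are RNA levels and do not measure ERK activity.

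Totals were 31106042 to 71521173 expected counts per library, so that 1 count was worth 0.0143 to 0.0324 CPM (counts per 1000000 counts of a library, scaled by TMM factors). Of 9 megakaryocytic markers, 8 were above 1 CPM in all libraries, with ITGA2B at 2090 to 2710 CPM, and GP1BB was listed at 0. None of 6 markers of other blood cells reached 1 CPM in any library. ZRSR2 mRNA measured 29.4, 22.9, 28.3 and 18.7 CPM across the knockout replicates, in the order 1 to 4, and 37.9, 39.3, 39.7 and 41.1 CPM across the control replicates. The groups did not overlap, with a log2 fold change of −0.67 (SE 0.15) and an exact two-sided permutation p of 0.0286, the smallest that 4 against 4 allows. Permuted within experiments, the exact p for ZRSR2 was 0.0556, the smallest possible there, and edgeR did not call it (adjusted p = 1, and 0.275 with the experiment as a block). DESeq2 gave an adjusted p of 0.103, and of 0.000538 with the block. ZRSR2 mRNA therefore remained in the knockout libraries, and was lower with guide 2 than with guide 1 in both experiments.

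Promoter sequences from RefSeq on GRCh38.p14 were matched for 5 of the 10 genes: EGR1, DUSP6, SPRY1, SPRY2 and SPRY4. Those of EGR1, DUSP6 and SPRY4 are shown, because these are the 3 matched genes that differed between the experiments, EGR1 upward and the other two downward. Each run is the 250 bases before the start site, 5′ to 3′ on the gene's strand: chr5:138465229-138465478 on the plus strand for EGR1, chr12:89352502-89352751 on the minus strand for DUSP6 and chr5:142324248-142324497 on the minus strand for SPRY4. Capitals mark matches on either strand to the motifs searched, which were ETS (CCGGAA), AP-1 (TGANTCA), CRE (TGACGTCA), STAT (TTCNNNGAA), EGR (GCGNGGGCG) and the CArG box bound by SRF.
EGR1: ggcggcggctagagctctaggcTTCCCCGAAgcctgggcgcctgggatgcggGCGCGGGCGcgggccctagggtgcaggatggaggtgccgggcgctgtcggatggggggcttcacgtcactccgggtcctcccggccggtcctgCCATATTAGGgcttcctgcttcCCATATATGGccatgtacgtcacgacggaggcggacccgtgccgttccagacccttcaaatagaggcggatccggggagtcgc
DUSP6: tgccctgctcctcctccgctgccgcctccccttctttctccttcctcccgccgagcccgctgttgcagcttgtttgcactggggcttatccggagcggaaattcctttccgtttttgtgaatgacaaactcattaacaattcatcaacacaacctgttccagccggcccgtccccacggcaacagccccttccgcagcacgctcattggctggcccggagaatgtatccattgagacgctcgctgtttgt
SPRY4: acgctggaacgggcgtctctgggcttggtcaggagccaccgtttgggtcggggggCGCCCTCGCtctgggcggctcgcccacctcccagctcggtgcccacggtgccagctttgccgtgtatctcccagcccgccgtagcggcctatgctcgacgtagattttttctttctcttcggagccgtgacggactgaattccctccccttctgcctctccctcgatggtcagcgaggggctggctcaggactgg
The EGR1 run holds 2 CArG boxes, starting 105 and 83 bases before the start site, a STAT match 228 bases before it and an EGR match 198 bases before it. Of 35116 promoters of this length, 1.16% hold a CArG box, 6.57% a STAT match and 8.41% an EGR match. The SPRY4 run holds 1 EGR match, 195 bases before the start site. The DUSP6 run holds no match to these 6 motifs. ETS, AP-1 and CRE matches, found in 14.5%, 6.57% and 1.65% of promoters, are in none of the 3 runs. Only the exact letters given above were searched for these, so shorter or variant forms of the motifs were not counted and may be present. Among the other matched genes, SPRY1 and SPRY2 each hold 1 ETS match, 67 and 142 bases before one of their start sites. The same SPRY1 run also holds a STAT match 188 bases and an EGR match 28 bases before the start site. The same SPRY2 run also holds 2 EGR matches, 134 and 41 bases before it. Over promoters of tested genes alone, the shares are 21.6% for ETS and 12.6% for EGR. These matches describe the letters and are not measured binding sites.

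Divided by the exon length of GENCODE 29, so that genes can be ranked, EGR1 had the highest mean level over both experiments, at 41.6 CPM per kb in 8 libraries (17.0 to 80.1). FOSL1, which encodes the AP-1 subunit FRA1, followed at 28.1 CPM per kb (16.3 to 39.7), and the PEA3-family ETS factors ETV4 and ETV5 at 14.7 (11.9 to 16.5) and 10.5 (8.85 to 12.6) CPM per kb. SPRY2 stood at 8.05 CPM per kb (7.26 to 8.94), SPRY1 at 6.82 (5.79 to 8.20), DUSP6 at 6.10 (3.97 to 8.58) and DUSP5 at 5.31 (2.37 to 8.74). DUSP4 and SPRY4 were far below these, at 0.326 (0.254 to 0.375) and 0.189 (0.0712 to 0.370) CPM per kb. Neighbours in this order had overlapping ranges except DUSP5 and DUSP4. SPRY4 rested on 17 to 75 counts per library and DUSP4 on 77 to 167, the fewest of the 10. The order is that of the pooled means and turns with the experiment: in experiment 1 FOSL1 (37.9 CPM per kb) stood above EGR1 (29 CPM per kb), and DUSP5 (8.01 CPM per kb) above SPRY2, DUSP6 and SPRY1 (7.89, 7.48 and 7.18 CPM per kb). Exons of DUSP6 and ETV4 overlap those of AC024909.2 and DHX8 on the other strand, and those of ETV5 overlap DGKG on the same strand. The use of strand in counting is not given in the sources used here, so reads of these pairs may be shared.

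The largest differences among the 10 genes lay between the experiments, not between the genotypes. In experiment 2, DUSP5, SPRY4, FOSL1 and DUSP6 fell and EGR1 and ETV5 rose, while DUSP4, SPRY1, SPRY2 and ETV4 did not pass the test. The negative regulators that passed were all lower, and the transcription factor genes lay on both sides. The count of 6 of 10 is close to the background: 58.2% of all tested genes passed the same test (edgeR's quasi-likelihood F test, Benjamini-Hochberg adjusted p under 0.05), with 29.6% higher and 28.6% lower. It is therefore a description of these genes and does not set them apart. At least 2-fold lower were 3 of the 10, against 5.44% of all genes. On the other side, 8.75% of all genes were at least 2-fold higher. The largest rise among the 10 stayed below that, at a log2 fold change of 0.89. In the same 6 genes, the 4 libraries of experiment 1 and the 4 of experiment 2 did not overlap, which held for 56% of all genes.

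**Figure D1:**
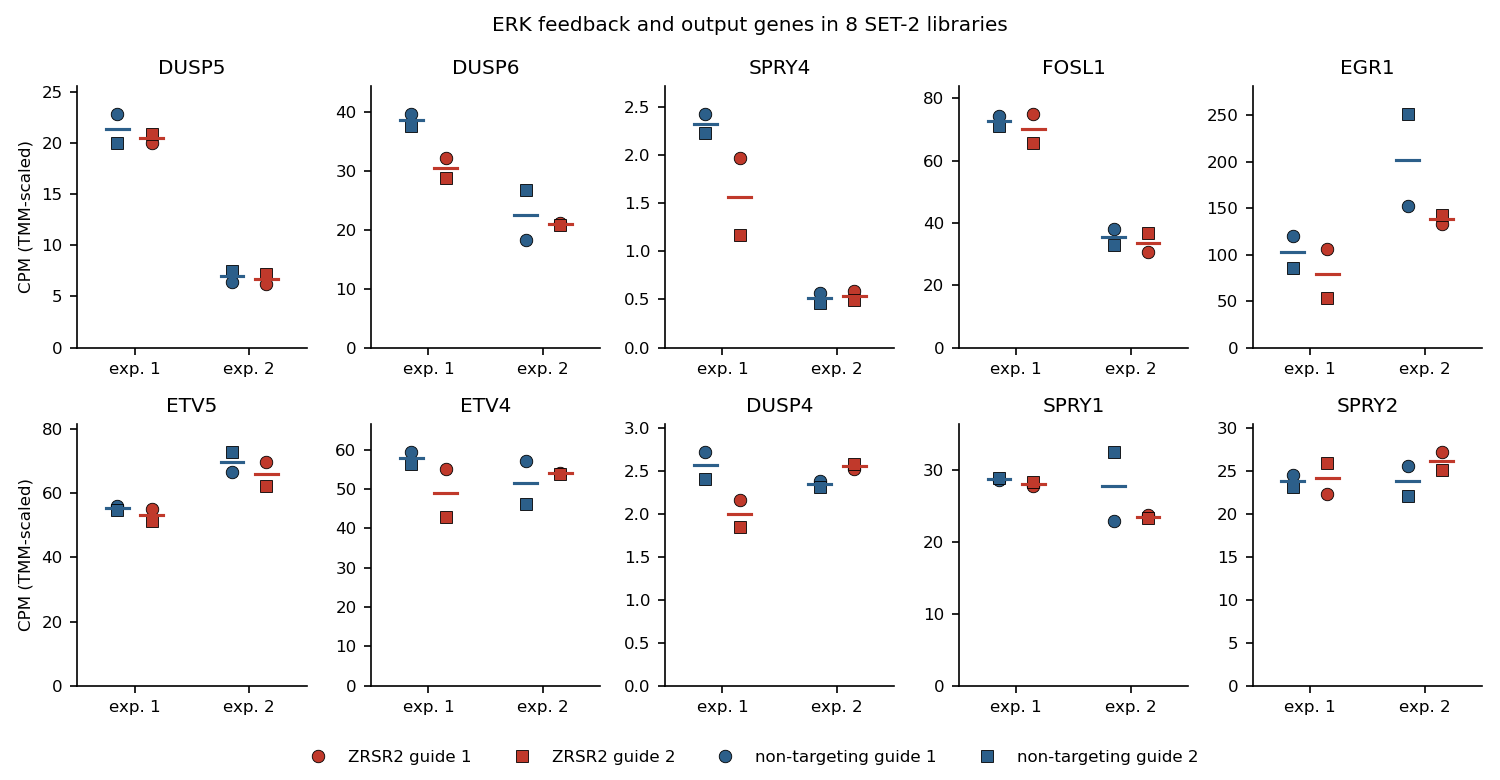
CPM of each of the 10 genes (TMM-scaled, linear axes from 0) in the 8 libraries, by experiment. Red marks ZRSR2 guides, blue non-targeting guides, circles guide 1, squares guide 2, and each bar is the mean of 2 libraries. DUSP5, DUSP6, SPRY4 and FOSL1 sit lower in experiment 2, and EGR1 and ETV5 higher, in both genotypes.

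DUSP5, a nuclear phosphatase specific for ERK, gave the sharpest split. Its level was 20.0 and 20.9 CPM in knockout replicates 1 and 2 and 22.8 and 20.0 CPM in the controls of experiment 1. In experiment 2 it was 6.20 and 7.17 CPM with ZRSR2 guides and 6.46 and 7.50 CPM in controls. All experiment 2 libraries lay well below all experiment 1 libraries, and within an experiment the highest and lowest library differed by at most 1.21-fold. The log2 fold change was −1.62 (SE 0.11, edgeR adjusted p = 1.37e-06), which is 3.07-fold lower. It was −1.62 in controls alone (adjusted p = 3.13e-05) and −1.61 in knockout libraries alone (adjusted p = 6.91e-05).

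DUSP6, the cytoplasmic ERK phosphatase, was at 32.2 and 28.9 CPM in the knockout and 39.7 and 37.7 CPM in the control libraries of experiment 1. In experiment 2 it was at 21.3 and 20.9 CPM in knockout and 18.4 and 26.9 CPM in control libraries. The experiments did not overlap, but the gap between the highest library of one and the lowest of the other was small. The log2 fold change was −0.66 (SE 0.12, edgeR adjusted p = 0.000642), with −0.78 in controls (adjusted p = 0.00302) and −0.54 in knockout libraries (adjusted p = 0.026). The call within knockout libraries was lost without any 1 of them, at adjusted p of 0.0588 to 0.156.

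DUSP4, a nuclear phosphatase of wider substrate range, was scarce. It was at 2.16 and 1.84 CPM in knockout and 2.72 and 2.41 CPM in control libraries of experiment 1. In experiment 2 it was at 2.52 and 2.58 CPM in knockout and 2.38 and 2.31 CPM in control libraries. The experiments overlapped, and the log2 fold change was 0.11 (SE 0.15, edgeR adjusted p = 0.551).

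Among the Sprouty genes, whose products inhibit receptor signalling to RAS and RAF, SPRY4 was the one that passed the test. It was at 1.97 and 1.17 CPM in knockout and 2.43 and 2.23 CPM in control libraries of experiment 1. In experiment 2 it was at 0.586 and 0.492 CPM in knockout and 0.570 and 0.467 CPM in control libraries. Every experiment 2 library was below every experiment 1 library, and knockout replicate 2 lay nearest to them. The log2 fold change was −1.83 (SE 0.24, edgeR adjusted p = 9.09e-05), or 3.55-fold lower. In controls alone it was −2.14 (adjusted p = 0.00057) and in knockout libraries alone −1.52 (adjusted p = 0.00637). Without knockout replicate 1 the knockout value was −1.11, with an adjusted p of 0.0663.

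SPRY1 ran from 27.82 to 28.97 CPM over the 4 libraries of experiment 1, and was at 23.7 and 23.3 CPM in knockout and 22.9 and 32.5 CPM in control libraries of experiment 2. Control replicate 4 was the highest of all 8 libraries, and the other 3 of its experiment were the lowest of all 8. The log2 fold change was −0.16 (SE 0.11, edgeR adjusted p = 0.232). Without that library it was −0.30 with an adjusted p of 0.00536, so the call on SPRY1 depended on 1 library. SPRY2 had the narrowest range of the 10, from 22.0 to 27.2 CPM, a ratio of 1.23, and its log2 fold change was 0.06 (SE 0.09, adjusted p = 0.613).

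EGR1, the immediate early zinc finger factor, moved the other way. It was at 105.5 and 53.2 CPM in knockout and 119.5 and 85.9 CPM in control libraries of experiment 1. In experiment 2 it was at 133.2 and 143.1 CPM in knockout and 152.6 and 251.2 CPM in control libraries. The experiments did not overlap, yet the 4 libraries of each differed among themselves by 2.25-fold and 1.89-fold. The log2 fold change was 0.89 (SE 0.21, edgeR adjusted p = 0.00384). In controls alone it was 0.97 (adjusted p = 0.0198), and in knockout libraries 0.80 (adjusted p = 0.0538). The control call for EGR1 was lost without control replicate 2 (0.76, adjusted p = 0.131) or control replicate 4 (0.56, adjusted p = 0.187), and under DESeq2 (adjusted p = 0.0649). The call over both genotypes held without each library in turn.

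FOSL1 fell in both genotypes. It was at 75.0 and 65.7 CPM in knockout and 74.5 and 71.0 CPM in control libraries of experiment 1, and at 30.7 and 36.7 against 37.99 and 33.1 CPM in experiment 2. The experiments were far apart and the genotypes overlapped in both. The log2 fold change was −1.05 (SE 0.09, edgeR adjusted p = 6.15e-06), with −1.03 in controls and −1.06 in knockout libraries.

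Of the PEA3-family ETS genes, ETV5 passed the test and ETV4 did not. ETV5 was at 55.2 and 51.3 CPM in knockout and 56.2 and 54.8 CPM in control libraries of experiment 1, and at 69.9 and 62.3 against 66.7 and 72.9 CPM in experiment 2. The experiments did not overlap, and the log2 fold change was small, at 0.32 (SE 0.08, edgeR adjusted p = 0.00388). It was 0.33 in controls (adjusted p = 0.0266) and 0.31 in knockout libraries (adjusted p = 0.0413), and each of these calls was lost without some single libraries. ETV4 was at 55.2 and 42.9 CPM in knockout and 59.4 and 56.5 CPM in control libraries of experiment 1, and at 54.2 and 53.9 against 57.0 and 46.3 CPM in experiment 2. Here the experiments overlapped, and the log2 fold change was −0.01 (SE 0.10, adjusted p = 0.926).

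For each of the 6 genes called, the exact two-sided permutation p over the 8 libraries was 0.0286, the smallest of 70 arrangements. That value follows from the lack of overlap between the experiments, which held for 56% of all genes, and adds nothing to it. In control libraries alone the same 6 genes were called, against 46.9% of all genes, and in knockout libraries 5 of 10 were called, without EGR1, against 36.9%. In bulk RNA, fewer cells that express a gene and less RNA per cell cannot be told apart. Marker levels moved with the experiment as well: the 9 megakaryocytic markers summed to 2890 to 3120 CPM in experiment 1 and 2990 to 3700 CPM in experiment 2, and the 3 erythroid markers to 543 to 590 and 563 to 795 CPM. The 6 markers of other blood cells summed to 0.809 to 1.21 and 0.727 to 1.1 CPM. The part of the megakaryocytic and erythroid shifts in these results was not tested.

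**Figure D2:**
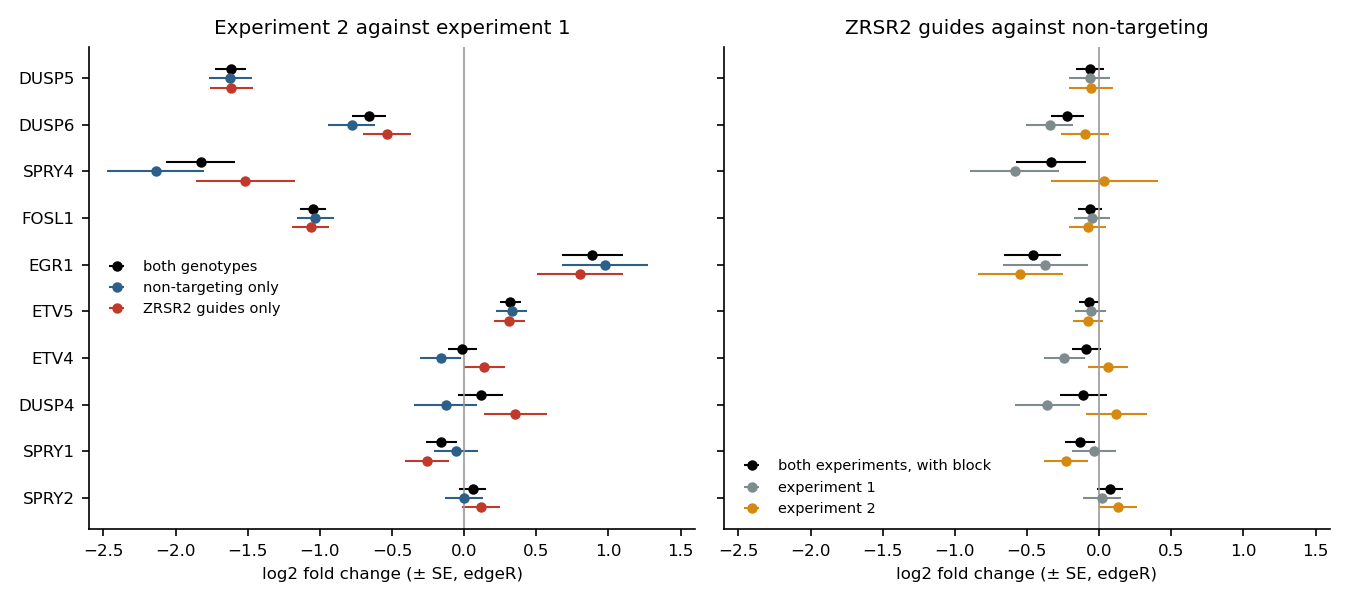
edgeR log2 fold changes with standard errors for the 10 genes. The left panel gives experiment 2 against experiment 1 over both genotypes and in each genotype alone, and the right panel ZRSR2 guides against non-targeting guides over both experiments with the experiment as a block, and within each experiment. Values on the left reach −1.83 for SPRY4 over both genotypes, while none on the right passed the adjusted threshold.

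The rest of the pathway was read from 5 further lists. Of 21 genes of the RAS to ERK chain, 4 rose in experiment 2 and 4 fell, with a median log2 fold change of −0.05, fewer on each side than the 29.6% higher and 28.6% lower of all genes. The risers with the largest changes were MAPK3, which encodes ERK1 (log2 fold change 0.89), the scaffold gene KSR1 (0.58) and the exchange factor gene SOS2 (0.51). The fallers were led by HRAS (−0.93), the ERK-activated kinase gene RPS6KA1 (−0.76) and SOS1 (−0.46). MAPK3 went from 54.4 ± 1.93 to 101.1 ± 12.5 CPM and HRAS from 23.3 ± 1.62 to 12.2 ± 2.25 CPM (mean ± SD, n = 4 each). Members of this chain thus moved both ways, as did the 10 genes.

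Of 14 other feedback genes, 12 were tested, with 2 higher, 3 lower and a median of 0.03, against 29.6% and 28.6% of all genes; SPRY3 and IL17RD were below the count filter. DUSP9, another ERK phosphatase gene, rose from 0.328 ± 0.095 to 2.65 ± 0.514 CPM (mean ± SD, n = 4 each; log2 fold change 2.98), and DUSP16, whose product favours JNK and p38, rose by 1.13 on the log2 scale. DUSP7, a close relative of DUSP6, fell (−1.09), as did the EGFR inhibitor gene ERRFI1 (−1.03) and LZTR1 (−0.28), which helps to degrade RAS proteins. Of the phosphatase genes named here, DUSP5, DUSP6 and DUSP7 were lower, DUSP9 and DUSP16 were higher, and DUSP4 did not pass the test.

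Of 25 other immediate early and ERK output genes, 15 fell and 3 rose, with a median of −0.41, against 28.6% of all genes lower, 29.6% higher and a median of 0.0035 over all genes. The EGR1 relatives EGR3 and EGR2 fell while EGR1 rose: EGR3 from 5.66 ± 1.58 to 0.456 ± 0.422 CPM (mean ± SD, n = 4 each; log2 fold change −3.84) and EGR2 by 1.64 on the log2 scale, from 1.64 ± 0.163 to 0.590 ± 0.438 CPM. The antiproliferative gene BTG2 fell (−1.30). On the other side were the AP-1 genes FOS (0.72, edgeR adjusted p = 0.0248) and JUNB (0.60) and the receptor gene EPHA2 (0.30). FOS and EGR1 were thus higher, and EGR2, EGR3 and FOSL1 lower, in the same libraries.

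Of 11 ETS and SRF regulators, 1 rose and 4 fell, with a median of −0.15, where 29.6% of all genes rose and 28.6% fell. SRF, the factor that binds CArG boxes, fell from 200.2 ± 11.8 to 96.0 ± 7.32 CPM (log2 fold change −1.06). The repressor gene ERF (−0.54) and ETS2 (−0.39) fell, and ETS1 rose (0.83). Of 10 receptor and JAK input genes, 9 were tested, with EGFR below the filter, and 5 rose and 2 fell (median 0.45), beside the same shares of all genes. Among the risers were the ubiquitin ligase gene CBLB (log2 fold change 0.79) and the growth factor receptor gene FGFR1 (0.67). SH2B3, an inhibitor of JAK2 signalling, fell (−0.58), and so did EPOR (−0.27).

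**Figure D3:**
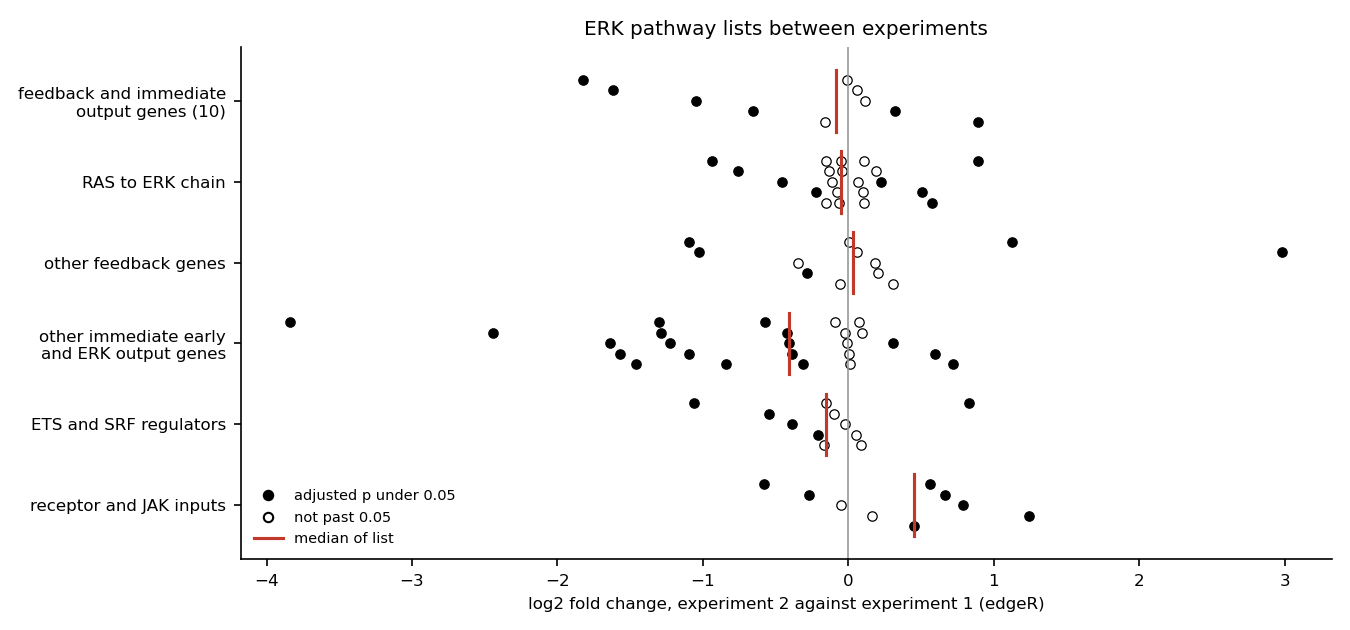
Each point is a tested gene's edgeR log2 fold change of experiment 2 against experiment 1, for the 10 genes and the 5 further lists, filled where the adjusted p was under 0.05; the red line is the list's median. The medians run from −0.41 in the other immediate early and ERK output genes to 0.45 in the receptor and JAK inputs, and every list holds genes called on both sides.

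The knockout effect was small beside this. With genotype alone in the fit, 9 of the 10 genes had a log2 fold change below 0, against 51.3% of all genes, and the median was −0.10 against −0.0033. The call count was 0 of 10 and 0 of 14898 genes (0%), with 0 of 10 and 89 of 14898 (0.597%) at an unadjusted p below 0.05. EGR1 had the largest value, −0.49 (SE 0.38), from 152.3 ± 71.4 CPM in controls to 108.7 ± 40.3 CPM in knockout libraries (mean ± SD, n = 4 each). SPRY4 followed at −0.43 (SE 0.66) and DUSP6 at −0.25 (SE 0.26). The others were SPRY1 at −0.13, DUSP4 at −0.11, ETV4 at −0.09, ETV5 at −0.07, DUSP5 and FOSL1 at −0.06 and SPRY2 at 0.08. The adjusted p was 1 for each of the 10. Genotypes overlapped in every one of them, where 0.678% of all genes did not overlap, and exact two-sided permutation p-values ran from 0.343 to 0.771. These ignore the experiments. Permuted within experiments, the exact p-values ran from 0.167 for DUSP6 to 0.556 for DUSP5 and ETV4, where the smallest possible was 0.0556.

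The experiment paired the libraries, and with it as a block the SE for EGR1 fell to 0.20 at a log2 fold change of −0.46 (edgeR unadjusted p = 0.037), where 4.63% of all genes had an unadjusted p under 0.05. DUSP6 was at −0.22 (SE 0.11) and SPRY4 at −0.34 (SE 0.24). The adjusted p stayed at 1 for all 10, and again 0 of 14898 genes were called by edgeR, against 690 whose unadjusted p was below 0.05. Under DESeq2, 4 genes (0.0268%) passed without the block and 31 (0.208%) with it, with 0 of the 10 among them. None of the genes on the 5 further lists was called by edgeR in this comparison. With genotype alone in the fit, 20 of the 25 other immediate early and ERK output genes were below 0, with a median of −0.12. The share of all genes below 0 was 51.3%. Below 0 on the other lists were 13 of 21 genes of the RAS to ERK chain (median −0.02) and 7 of 12 other feedback genes (−0.01). So were 10 of 11 ETS and SRF regulators (−0.05) and 7 of 9 receptor and JAK inputs (−0.03).

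Within experiment 1, 9 of the 10 genes were below 0, against 49.4% of all genes, with a median of −0.15 against 0.0018 over all genes. Both knockout libraries lay below both controls in DUSP4, DUSP6, SPRY1, SPRY4 and ETV4, which held for 17.9% of all genes. The log2 fold changes were −0.58 for SPRY4 (edgeR unadjusted p = 0.0852), −0.37 for EGR1, −0.36 for DUSP4, −0.34 for DUSP6 (unadjusted p = 0.0603) and −0.24 for ETV4. The other 5 were between −0.07 and 0.02. The adjusted p was 1 for all 10, and edgeR called 0% of genes in this comparison, with 305 at an unadjusted p under 0.05.

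A knockout and a control library both stood out in experiment 1. Knockout replicate 2 (guide 2) was the lowest of the 4 libraries in 7 of the 10 genes, against 33.3% of all genes, and it was the highest in 33.9% of all genes. Control replicate 1 was the highest in 7 of the 10, against 21.2% of all genes. As a share of the mean control of its experiment, knockout replicate 2 was at 50.1% for SPRY4, 51.8% for EGR1, 71.9% for DUSP4, 74.1% for ETV4 and 74.7% for DUSP6. Knockout replicate 1 was at 84.5%, 102.7%, 84.3%, 95.3% and 83.1% for the same genes. Without knockout replicate 2, the values in experiment 1 were 0.05 for EGR1, −0.24 for SPRY4, −0.24 for DUSP4, −0.06 for ETV4 and −0.26 for DUSP6 on the log2 scale. Without control replicate 1 they were −0.11 for EGR1, −0.51 for SPRY4, −0.27 for DUSP4, −0.20 for ETV4 and −0.30 for DUSP6. The value for EGR1 in experiment 1 thus turned or shrank with either library left out. Over all fits without 1 library it ran from −0.94 to 0.05, so it also grew in some.

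Within experiment 2 the pattern differed by gene. EGR1 was lower in both knockout libraries than in both controls, at 66.0% and 70.9% of the control mean (log2 fold change −0.55, edgeR unadjusted p = 0.0896), where 12.3% of all genes lay so. DUSP4 was higher in both (0.12), where 11.2% of all genes lay so. SPRY1 was at −0.23, DUSP6 at −0.10, SPRY4 at 0.03, ETV4 at 0.06 and SPRY2 at 0.13, all with overlap. Of the 10 genes 6 were below 0, against 49.4% of all genes, with a median of −0.07 against 0.0021 over all genes, and the adjusted p was 0.998 for all 10. EdgeR called 0% of genes, and 645 had an unadjusted p below 0.05. Without the count filter EGR1 was called, at the same −0.55 with an adjusted p of 0.00631, and without control replicate 4, where EGR1 was at 251.2 CPM, its value was −0.12.

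The difference of the knockout effect between experiments passed the test in 0 of 10 genes and 0 of 14898 (0%), with 248 at an unadjusted p under 0.05. It was 0.62 for SPRY4, 0.48 for DUSP4, 0.30 for ETV4, 0.25 for DUSP6 and −0.17 for EGR1, each with an edgeR adjusted p of 1.

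**Figure D4:**
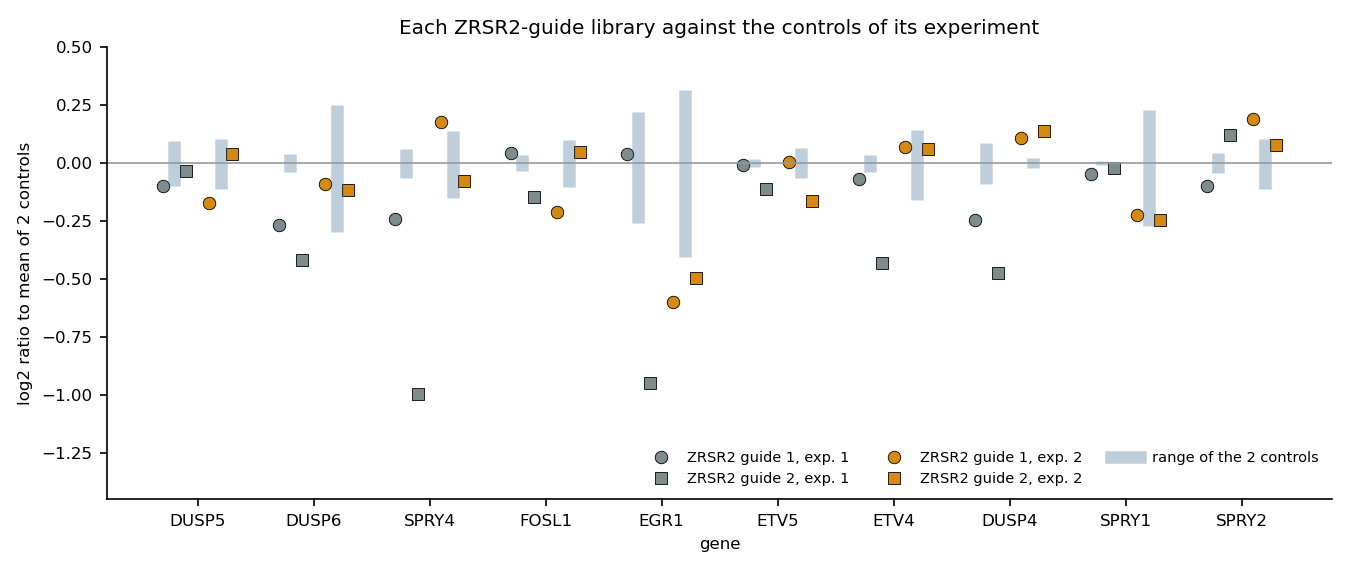
Log2 ratio of each ZRSR2-guide library to the mean of the 2 controls of its experiment, for the 10 genes. Circles are guide 1 and squares guide 2, grey experiment 1 and orange experiment 2, and pale bars span the 2 controls. The lowest points are guide 2 of experiment 1 for SPRY4 (50.1% of control) and EGR1 (51.8%), and both EGR1 points of experiment 2 lie below its controls.

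Guides were then compared over both experiments. Against non-targeting guides, ZRSR2 guide 1 gave log2 fold changes of −0.34 for EGR1, −0.15 for SPRY4 and −0.20 for DUSP6, and guide 2 gave −0.63, −0.76 and −0.30. ZRSR2 was at −0.45 and −0.92 in the same order. These comparisons share the control libraries. EdgeR called 0 of the 10 genes and 0% of all genes with either guide, and 18 and 60 genes had an unadjusted p below 0.05. In the fit blocked by experiment, guide 2 gave −0.70 for EGR1 (unadjusted p = 0.00583, adjusted p = 0.581) and −0.63 for SPRY4 (unadjusted p = 0.0613). ZRSR2 itself passed in that fit (edgeR adjusted p = 0.0118) and in 5 of the 8 such fits without a library. It was among 10 genes called (0.0671%) and 0 of the 10 described here. Without knockout replicate 4, which leaves guide 2 with 1 library whose spread is taken from the other groups, EGR1 passed in the blocked fit at −1.07 with an adjusted p of 0.00993, among 112 genes.

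ZRSR2 guide 2 set against ZRSR2 guide 1 gave −0.61 for SPRY4, −0.28 for EGR1 and −0.18 for ETV4, with 0% of genes called and 27 at an unadjusted p under 0.05. Guide 2 was on the same side of guide 1 in both experiments for 5 of the 10 genes. DUSP5 was higher, as were 19.9% of all genes, and DUSP6, SPRY4, ETV4 and ETV5 were lower, as were 20.4%. The guide libraries were separated over both experiments for ETV4 alone of the 10, which was lower with guide 2, as for 5.03% of all genes.

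The non-targeting guides have no target gene. Guide 2 against guide 1 gave 0.31 for EGR1, 0.25 for SPRY1, −0.18 for ETV4 and −0.14 for SPRY4, with 0% of genes called and 13 at an unadjusted p under 0.05. SPRY1 was higher with guide 2 in both experiments, as were 22.7% of all genes, and DUSP4, SPRY2, SPRY4, ETV4 and FOSL1 were lower, as were 23.3%. The guide libraries were separated for SPRY1, which was higher (5.89% of all genes), and for SPRY2 and ETV4, which were lower (4.93%). Control guide 2 of experiment 2 was the highest library of its experiment in 5 of the 10 genes and the lowest in 4, against 28.9% and 32.2% of all genes.

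After the experiment means were subtracted, the 10 genes varied unequally. The SD of log2 CPM was 0.467 for EGR1, 0.342 for SPRY4 and 0.219 for DUSP6, against a median of 0.146 over all tested genes, and 0.0795 for ETV5. As a description over the 8 libraries, which share depth and experiment, DUSP6 correlated with EGR1 at r = 0.778 and SPRY4 with ETV4 at r = 0.931, while SPRY2 and EGR1 were at −0.778; these pairs were chosen after their values were seen. Outside the 10, the genes most like DUSP6 on this measure were MANEA (r = 0.992), ABHD17B (0.987) and EMILIN1 (0.987). Those most like EGR1 were GBP2 (0.975), PPP2R5B (0.972) and SPATA13 (0.972). These were picked as the highest among all tested genes, so their r is high by choice.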

How the data were processed

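Messenger RNA libraries (4 ZRSR2-guide, 4 non-targeting) were made with a Kapa mRNA kit from column-purified total RNA, per the labels' protocols. The deposited values are expected counts per gene symbol, made by the authors with RSEM 1.2.30 after cutadapt 1.11 on hg19, per the submitters' processing notes; aligner, annotation and use of strand are not given in the sources used here. RSEM assigns shared reads by probability, so counts of close relatives depend on that step. All values were whole already, so rounding changed 0 of them, and 0 columns belonged to other samples. Table columns were matched by the library number in the sample titles.

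The count filter was filterByExpr of edgeR by genotype (minimum count 10; 14898 of 25435 genes kept), and scaling was by TMM. Genes were tested by the quasi-likelihood F test of edgeR, Benjamini-Hochberg adjusted over all tested genes, at 0.05. Knockout was tested with genotype alone; experiments, effects within them and their difference in one fit of genotype by experiment; guides in one fit with the 4 guides. SEs come from the F statistic. DESeq2, other scalings and filters, and leaving out each library were alternatives. Blocked fits that leave out a library were chosen after seeing the data. Tests were checked on simulated data. Floors of 3 counts (0.0428 to 0.0971 CPM) describe counting error alone, because reads lacking molecular identifiers need not be separate molecules.

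The experiment number pairs the samples. Deviations from genotype means correlated at 0.678 to 0.846 in the 8 knockout-control pairs of the same experiment and at −0.816 to −0.709 in 8 pairs of different experiments, and the protocol ties biological replicates to collection days. No 2 libraries agreed within sampling noise (28 pairs; chi-square divided by its degrees of freedom at least 3.11).

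The 10 genes and the lists were chosen with earlier results of these data known. Named beside the 10 and ZRSR2 are, per list, at most 3 risers and 3 fallers past the threshold between experiments with the largest change and a mean of at least 1 CPM, and the 3 genes most correlated with DUSP6 and with EGR1; 1 gene that this rule names is not reported here. Gene lengths and overlaps came from GENCODE 29, promoters from RefSeq. R 4.3.3, edgeR 4.0.16, limma 3.58.1, DESeq2 1.42.0, Python 3.11.15 and matplotlib 3.10.9 were used.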

Additional observations from a re-analysis of the deposited data

Results flagged for a closer look

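In 3 of 44 groups of 4 libraries tested for the 10 genes and ZRSR2, a library stood apart from the other 3 by Dixon's 95% criterion, where chance gives about 1 in 20. Control replicate 4 was at 32.51 CPM for SPRY1, with the other libraries of experiment 2 at 22.94 to 23.73 CPM. The same library was at 251.2 CPM for EGR1, with the others of experiment 2 at 133.2 to 152.6 CPM. Knockout replicate 2 was at 42.95 CPM for ETV4, with the other knockout libraries at 53.85 to 55.2 CPM.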

How the results depend on the processing

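Over 84 results and 1230 alternative values, settings other than leaving out a library gave 385 values with the same direction and call, 13 counts that moved, 6 gains and 2 losses of a call and 0 changes of direction; leaving out a library gave 746, 20, 10, 15 and 33. The 6 calls between experiments over both genotypes held in all 8 fits without a library. With the replicate block, edgeR still called 0 genes for knockout against non-targeting. For guide 2 against non-targeting it called 10 genes with the block and 0 without it. With all libraries kept, the block changed no call of the 10 genes described here. DESeq2 called 4 genes for knockout against non-targeting and 31 with the block, 5 within experiment 1, 13 within experiment 2, 2 for guide 2 against non-targeting and 39 with the block, 4 for guide 1 against non-targeting with the block and 2 for ZRSR2 guide 2 against guide 1 with the block. Without the count filter, edgeR called 40 genes within experiment 1, 116 within experiment 2, 1 of them (EGR1) among the 10, and 5 for the difference of effects. The cause was not tested.

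Without 1 library at a time, the number of genes called stayed at 0 for knockout against non-targeting and for guide 2 against non-targeting without the block; with the block it ran from 0 to 12 and from 1 to 112. It ran from 0 to 2 within experiment 1, 0 to 154 within experiment 2, 2787 to 6946 between experiments in knockout and 4094 to 7233 in control libraries. Of the 10 genes, 3 to 7 were called between experiments in knockout libraries and, with the block, 0 to 1 for guide 2. Log2 fold changes that changed sign were, for knockout against non-targeting, DUSP5 (−0.35 to 0.27), ETV5 (−0.15 to 0.0233) and FOSL1 (−0.29 to 0.14) without the block, and ETV4 (−0.16 to 0.0112) and SPRY1 (−0.21 to 0.0075) with it; SPRY1 reached −0.22 without it. Within experiment 1 it was EGR1 (−0.94 to 0.0451), and within experiment 2 DUSP6 (−0.35 to 0.22), ETV4 (−0.0558 to 0.22) and SPRY4 (−0.10 to 0.21). The difference of effects turned for DUSP6 (−0.0099 to 0.56) and EGR1 (−0.60 to 0.39). Guide 1 against non-targeting turned for DUSP6 (−0.53 to 0.14), EGR1 (−0.64 to 0.15) and SPRY4 (−1.26 to 0.61), and guide 2 for DUSP6 (−0.55 to 0.036). Between ZRSR2 guides EGR1 (−1.17 to 0.26) and SPRY4 (−1.36 to 0.51) turned, between control guides EGR1 (−0.66 to 0.90), and between experiments ETV4 (−0.10 to 0.0838). With genotype alone, leaving out a library also leaves the experiments unequal between the genotypes. A fit that left 1 library in an arm took its spread from the other groups. Depth limits SPRY4, at 17 to 75 counts per library.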
